A study of Mus musculus with 10 samples.

Results

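Neuronal potassium channels are represented here by 43 genes of the voltage-gated (Kv), KCNQ, EAG and ERG, inward rectifier, calcium-activated, sodium-activated and two-pore families together with their auxiliary subunits, chosen by symbol from the 30935 genes of a count table. All 43 matched a row of the table, and all 43 passed the filter on low counts. Their levels were followed in 10 RNA sequencing libraries of mouse cerebral cortex at postnatal day 8, 5 from mice with both copies of HAR.505 deleted at the Rbfox1 locus (Rbfox1 ΔHAR.505/ΔHAR.505, called knockout; replicates 1, 3, 5, 6 and 8) and 5 from wild-type mice (Rbfox1 +/+; replicates 2, 4, 5, 6 and 7). HAR.505 is a human accelerated region, a stretch of conserved DNA with many human-specific changes, and it was studied as a candidate enhancer. No strain, sex or treatment is labelled, and nothing is labelled as shared by both genotypes beyond age and tissue. The gene table does not measure a noncoding element, so the counts do not check the genotype labels.

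Potassium channels set the resting potential of a neuron, shorten its action potentials and limit its firing rate. Kv channels open on depolarisation, inward rectifiers pass current near rest, and two-pore channels carry leak current. G-protein-gated inward rectifiers, called GIRK channels, open when Gi/o-coupled receptors release G-protein beta-gamma subunits, and so carry the slow inhibition evoked by GABA-B, adenosine and serotonin receptors. GIRK channels are tetramers: Kcnj3 encodes GIRK1, Kcnj6 encodes GIRK2 and Kcnj9 encodes GIRK3, and GIRK1 needs a partner subunit to reach the cell surface. In the first weeks after birth cortical neurons gain potassium current as their firing matures.

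The promoter sequences of the GIRK genes are shown because these genes are the ones on which the genotype comparison turns. They are the RefSeq sequences of GRCm38.p6, from 250 bases before to 50 bases after the annotated start, at chr1:172329273-172329572 on the minus strand for Kcnj9, chr2:55435720-55436019 on the plus strand for Kcnj3 and chr16:94997647-94997946 on the minus strand for Kcnj6, for which the table holds 2 starts and the upstream one is printed. Capitals mark matches on either strand to TATAAA (the sequence of a TATA box), GGGCGG (of a GC box), CACGTG (of an E-box) or TGACGTCA (of the cyclic AMP response element). None of these matches overlap one another here, and a match does not show that the motif is in use.
Kcnj9: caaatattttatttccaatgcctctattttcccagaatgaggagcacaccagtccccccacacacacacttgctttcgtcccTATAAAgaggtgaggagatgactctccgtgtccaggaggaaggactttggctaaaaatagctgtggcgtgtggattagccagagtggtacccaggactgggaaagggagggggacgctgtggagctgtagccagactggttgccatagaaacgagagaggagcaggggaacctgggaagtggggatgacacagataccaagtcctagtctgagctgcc
Kcnj3: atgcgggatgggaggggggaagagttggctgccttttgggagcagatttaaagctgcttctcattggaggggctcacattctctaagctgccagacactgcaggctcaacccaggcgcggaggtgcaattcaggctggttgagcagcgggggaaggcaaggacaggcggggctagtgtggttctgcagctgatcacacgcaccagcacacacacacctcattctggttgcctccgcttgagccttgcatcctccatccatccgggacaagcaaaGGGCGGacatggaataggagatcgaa
Kcnj6: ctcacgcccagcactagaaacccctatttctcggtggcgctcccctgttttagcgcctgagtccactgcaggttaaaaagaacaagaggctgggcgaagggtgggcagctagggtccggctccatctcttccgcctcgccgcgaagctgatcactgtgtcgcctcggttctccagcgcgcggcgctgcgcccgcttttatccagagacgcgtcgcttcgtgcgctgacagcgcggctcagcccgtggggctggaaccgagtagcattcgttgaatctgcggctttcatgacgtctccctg
The Kcnj9 window held 1 TATAAA, a motif present in 13.6% of the 32851 promoter windows of the table, and 5 CpG dinucleotides. That TATAAA lies well before the annotated start and not next to it. The Kcnj3 window held 1 GGGCGG, present in 35.7% of windows and here after the annotated start, and 10 CpG dinucleotides. The Kcnj6 window printed held none of the 4 motifs and 30 CpG dinucleotides, while that of the other Kcnj6 start held 1 GGGCGG and 9 CpG dinucleotides. CACGTG, found in 7.2% of all windows, and TGACGTCA, found in 1.8%, were in none of the 3 windows printed.

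Levels are given as CPM (counts scaled to the normalised library total) within a gene, and as CPM per kilobase of annotated exon wherever genes are set side by side. The library totals lay between 16479594 and 22391943 counts, and no member had fewer than 110 counts in a library. All 6 markers of cortical excitatory neurons were detected in each library, with a summed level of 1474 to 1611 CPM in knockout and 1406 to 1514 CPM in wild-type libraries. Knockout replicates 1, 3, 5 and 6, at 1536 to 1611 CPM, were above every wild-type library in that sum. Of the 6, 0 passed the edgeR test over all genes, while Neurod6 was higher and Tbr1 lower at an unadjusted p under 0.05. Markers of neighbouring tissues differed between the genotypes. The 10 striatal markers summed to 235 to 354 CPM in knockout and 314 to 420 CPM in wild-type libraries, with 2 of 10 lower past the test over all genes (Six3 and Penk) and 8 of 10 lower at an unadjusted p under 0.05. The 10 choroid plexus and ependymal markers summed to 12.5 to 230.0 CPM in knockout and 252 to 315 CPM in wild-type libraries, with 2 of 10 lower past the test (Clic6 and Tmem72). Ttr, the main choroid plexus transcript, had 200, 0, 0.490, 5.07 and 80.6 CPM in knockout replicates 1, 3, 5, 6 and 8, against 213 to 278 CPM in wild type, and the count of 0 allows up to 0.166 CPM (3 counts, counting error only). The 6 interneuron markers summed to 494 to 609 CPM in knockout and 599 to 677 CPM in wild-type libraries, with 1 of 6 lower past the test (Slc32a1, the vesicular GABA transporter). At an unadjusted p under 0.05, 3 of 6 were lower and 1 was higher (Vip, log2 fold change 0.33). Of the 6 markers each of astrocytes, oligodendrocyte lineage, microglia, and endothelial and mural cells, 0 passed the edgeR test, while 3, 0, 0 and 1 were higher at an unadjusted p under 0.05. Over all tested genes, 0.187% were higher and 0.194% lower past the test, and 4.19% and 4.52% at an unadjusted p under 0.05. In bulk tissue, fewer cells of a type and less RNA per cell cannot be told apart.

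Of the Kv4 and KChIP subunits of the fast, A-type potassium current, Kcnip2 and Kcnd2 ranked 3 and 4 of the 43 members per length in wild type. Kcnip3, Kcnip4, Kcnd3 and Kcnip1 ranked 14, 21, 23 and 28. KChIP genes, whose calcium-binding proteins speed the trafficking and gating of Kv4 channels, summed to 58.2 ± 1.72 CPM per kilobase in knockout and 56.8 ± 1.91 CPM per kilobase in wild-type cortex (SD, n = 5 each), the highest of the 16 families per length and the sixth in CPM. Kcnip2 led that family with 27.1 ± 1.08 CPM per kilobase in knockout and 28.6 ± 2.07 in wild type. Kcnip3 followed with 16.5 ± 1.72 and 14.6 ± 0.651 CPM per kilobase, in knockout and wild type, Kcnip4 with 9.26 ± 0.847 and 7.80 ± 0.635, and Kcnip1 with 5.33 ± 0.389 and 5.82 ± 0.145. Of the Kv4 pore subunits, Kcnd2 stood at 24.9 ± 0.360 CPM per kilobase in knockout and 25.1 ± 1.60 in wild type, and Kcnd3, its relative, at 6.47 ± 1.01 and 6.94 ± 0.496. In wild type the intervals of 1 SD of Kcnip2 and Kcnd2 overlapped. Such intervals do not compare 2 genes within a library, so they do not decide the order of these neighbours.

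In the EAG-like and Kv3 families 1 gene stood well above its relatives, while the Kv1 genes were graded. Kcnh3, a forebrain member of the EAG-like family, stood at 32.6 ± 2.15 CPM per kilobase in knockout and 30.1 ± 1.02 in wild type. Kcnh1, Kcnh7 and Kcnh5 of the same group were between 2.93 and 6.19 CPM per kilobase in knockout and between 3.38 and 7.02 in wild type. Among the Kv3 genes, Kcnc4 had 25.8 ± 3.16 CPM per kilobase in knockout and 23.4 ± 0.942 in wild type. Kcnc1 (9.97 ± 0.694 and 9.99 ± 0.762 CPM per kilobase in knockout and wild type) and Kcnc2 (7.93 ± 0.631 and 6.91 ± 0.570), the Kv3 genes best known from fast-spiking interneurons, were lower than Kcnc4 in each genotype. The Kv1 genes, whose channels sit at axons and set firing threshold, ran from Kcna6 at 12.3 ± 0.566 CPM per kilobase in knockout and 12.6 ± 1.11 in wild type, through Kcna2 (8.91 ± 0.976 and 8.44 ± 0.463) and Kcna3 (6.20 ± 0.833 and 6.71 ± 0.764), to Kcna4 (4.42 ± 0.377 and 3.83 ± 0.317) and Kcna1 (4.50 ± 0.866 and 3.77 ± 0.696). The last 2 did not differ from each other beyond their spread. The cytoplasmic beta subunits of Kv1 channels were led by Kcnab2 at 24.7 ± 1.96 CPM per kilobase in knockout and 22.8 ± 2.14 in wild type, followed by Kcnab1 (6.88 ± 1.14 and 6.04 ± 0.475) and Kcnab3 (3.91 ± 0.497 and 3.29 ± 0.463).

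The KCNQ genes Kcnq3 and Kcnq5 encode subunits of the M-current, which muscarinic receptors shut. Kcnq3 stood at 18.0 ± 2.76 CPM per kilobase in knockout and 19.9 ± 1.70 in wild type, and Kcnq5 at 14.4 ± 0.841 and 14.6 ± 0.961. Kcnv1, Kcns1 and Kcns2 encode silent subunits that form no channel alone and modify Kv2 channels. Kcnv1 had 17.3 ± 1.25 CPM per kilobase in knockout and 19.3 ± 0.631 in wild type, well above Kcns1 (8.40 ± 1.43 and 8.73 ± 0.379) and Kcns2 (5.40 ± 0.547 and 5.37 ± 0.615). Kcnb2, the Kv2 pore subunit among the members, was at 2.24 ± 0.366 CPM per kilobase in knockout and 2.26 ± 0.349 in wild type.

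Inward rectifier, leak and calcium- or sodium-activated channel genes spanned the whole range of levels. The strong inward rectifier gene Kcnj4 was the highest of the 43 members, at 34.2 ± 3.19 CPM per kilobase in knockout and 32.8 ± 2.13 in wild type, and its relative Kcnj2 was the lowest, at 2.11 ± 0.457 and 2.15 ± 0.378. In wild type the intervals of 1 SD of Kcnj4 and Kcnh3 overlapped, which does not decide their order within a library. Kcnk1 (TWIK-1) stood at 21.8 ± 0.870 CPM per kilobase in knockout and 19.5 ± 1.29 in wild type, Kcnk2 (TREK-1) at 17.8 ± 1.10 and 17.4 ± 1.03, and Kcnk3 (TASK-1) at 5.39 ± 0.769 and 5.01 ± 0.277. Kcnj11, the pore subunit of ATP-sensitive channels, was at 6.65 ± 0.329 CPM per kilobase in knockout and 5.54 ± 0.412 in wild type. Kcnma1, the pore of the large-conductance BK channel, was at 13.1 ± 1.05 and 13.6 ± 1.40 CPM per kilobase, above its neuronal beta subunit gene Kcnmb4 at 4.64 ± 0.623 and 3.91 ± 0.363. Of the small-conductance SK genes, Kcnn1 was at 10.5 ± 1.01 CPM per kilobase in knockout and 9.40 ± 0.423 in wild type, while Kcnn2 and Kcnn3 lay between 3.50 and 3.71 in either genotype. The sodium-activated channel genes Kcnt1 and Kcnt2 lay between 5.39 and 6.54 CPM per kilobase. Lengths are those of all annotated exons of a gene, which overstate the length of genes whose long isoforms are little used. With the length of the longest transcript, an alternative chosen after the data were seen, Kcnh3 ranked above Kcnj4, Kcnab2 moved to rank 3, and Kcnj6 moved from rank 41 to rank 35 of 43.

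**Figure D1:**
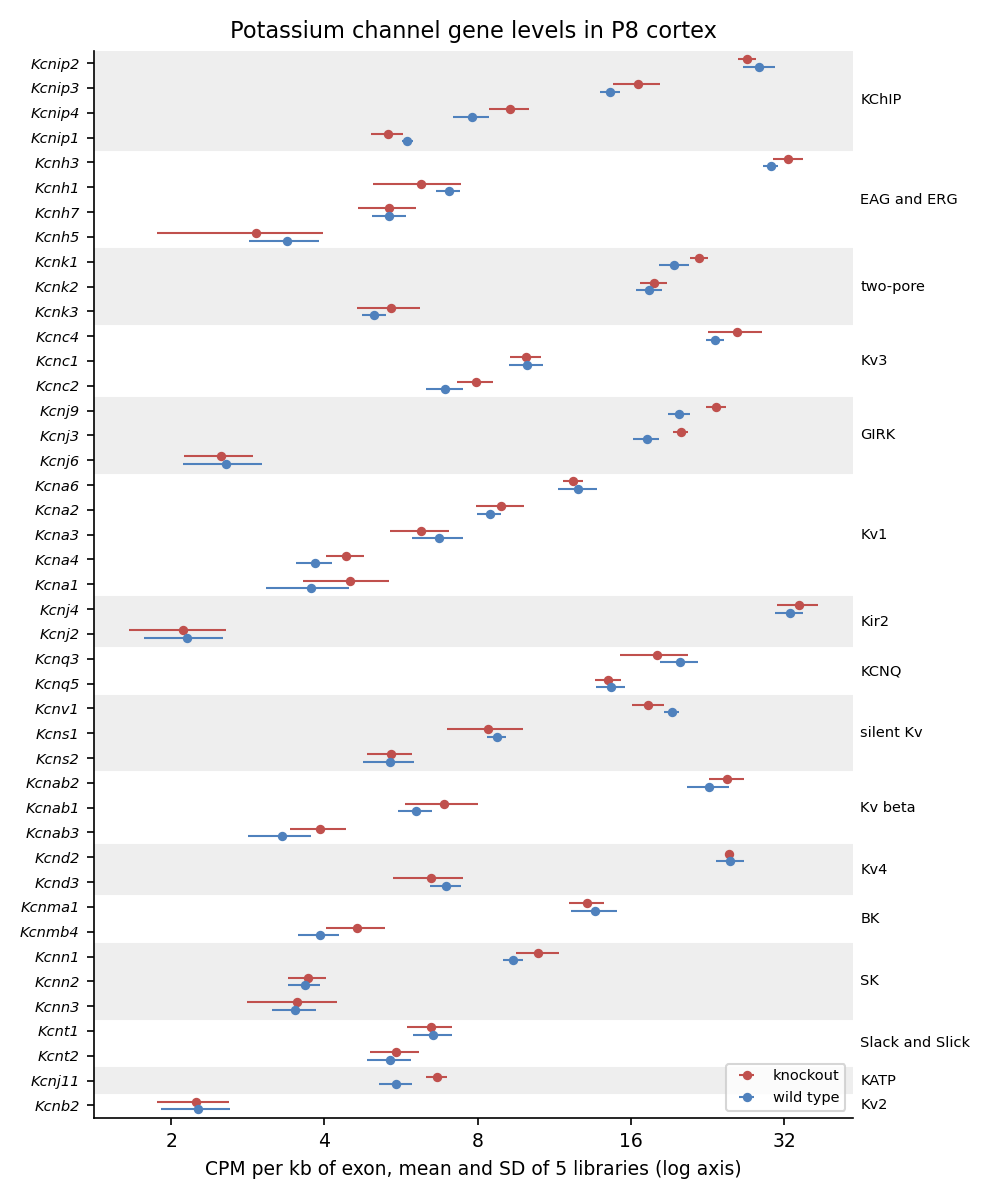
CPM per kilobase of exon on a log axis for the 43 genes, as means with SD of 5 knockout (upper, red) and 5 wild-type (lower, blue) libraries, grouped by family with the highest family at the top. Kcnj4 and Kcnh3 are at the right, Kcnj2, Kcnb2 and Kcnj6 at the left, and the bars of the genotypes overlap for most genes.

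Within the GIRK family, Kcnj9 and Kcnj3 were expressed at similar levels and Kcnj6 well below them. Kcnj9 stood at 23.6 ± 1.10 CPM per kilobase in knockout and 19.9 ± 1.003 in wild type, Kcnj3 at 20.1 ± 0.682 and 17.2 ± 0.989, and Kcnj6 at 2.51 ± 0.388 and 2.56 ± 0.452 (SD, n = 5 each). The ratio of Kcnj9 to Kcnj3 per length was 1.09, 1.24, 1.14, 1.25 and 1.16 in knockout replicates 1, 3, 5, 6 and 8, and 1.25, 1.04, 1.28, 1.18 and 1.06 in wild-type replicates 2, 4, 5, 6 and 7. Per length, Kcnj9 was the higher of the pair in every library, by 1.17 ± 0.0689 times in knockout and 1.16 ± 0.109 times in wild type, while in counts not divided by length Kcnj3 was the higher in 6 of the 10 libraries (3 of 5 of each genotype). Against Kcnj6 the ratio was 8.08, 13.4, 8.36, 9.39 and 9.09 in the knockout libraries and 7.98, 9.03, 8.37, 6.30 and 7.81 in the wild-type libraries, in the same replicate order. Kcnj6 has 7.633 kilobases of annotated exon but a longest transcript of 3.627 kilobases. With longest transcripts the mean ratio of Kcnj9 to Kcnj6 was 5.10 in knockout and 4.17 in wild type, so its size depends on the length used while its direction does not.

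Kcnj9 was the only member that rose past the test over all genes. It stood at 98.6, 107, 98.0, 105 and 96.3 CPM in knockout replicates 1, 3, 5, 6 and 8, against 85.4, 80.1, 89.8, 89.3 and 82.0 CPM in wild-type replicates 2, 4, 5, 6 and 7. The lowest knockout library lay above the highest wild-type library. The log2 fold change was 0.24 (SE 0.0535), a fold of 1.18 with a 95% interval from 1.10 to 1.28, and the edgeR quasi-likelihood test with Benjamini-Hochberg adjustment over 15488 genes gave an adjusted p of 0.0346. On log2 CPM, an exact two-sided permutation test returned p = 0.00794, the smallest that 252 assignments of the libraries allow. This unadjusted value follows from the lack of overlap and adds nothing to it. The call rested on single libraries: the log2 fold change stayed between 0.22 and 0.27 when 1 library was left out, and the adjusted p was 0.140 without knockout replicate 3, 0.0868 without knockout replicate 6, 0.107 without wild-type replicate 2, 0.137 without wild-type replicate 4, 0.0546 without wild-type replicate 5 and 0.0972 without wild-type replicate 7. It was 0.0771 with sex as a term and 0.497 without knockout replicates 3, 5 and 6, the libraries with least Ttr, where the log2 fold change was 0.19.

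Kcnj3 had nearly the same difference and missed the threshold narrowly. Its level was 110, 105, 105, 102 and 101 CPM in the knockout libraries, against 82.7, 93.3, 85.5, 92.0 and 94.4 CPM in the wild-type libraries, and the groups did not overlap. The log2 fold change was 0.22 (SE 0.0528, 95% interval of the fold from 1.08 to 1.26), with an edgeR adjusted p of 0.0505. The exact permutation test again gave the smallest possible p, 0.00794, unadjusted, which again follows from groups that do not overlap. DESeq2 (adjusted p = 0.0107) and edgeR without a filter (0.0143) placed it past the threshold, as did edgeR without knockout replicate 8 (0.0185). The other 18 of 21 alternatives did not. Among those, the edgeR adjusted p was 0.0999 with sex as a term and up to 0.223 with 1 library left out. It was 0.295 without knockout replicates 3, 5 and 6. Kcnj6 had 21.7, 14.2, 20.9, 20.0004 and 18.9 CPM in the knockout libraries and 19.0, 15.8, 19.1, 25.2 and 18.7 CPM in the wild-type libraries. These groups overlapped throughout, and the log2 fold change was -0.04 (SE 0.119, 95% interval of the fold from 0.823 to 1.16, edgeR adjusted p = 0.974), an interval that overlaps that of Kcnj9.

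**Figure D2:**
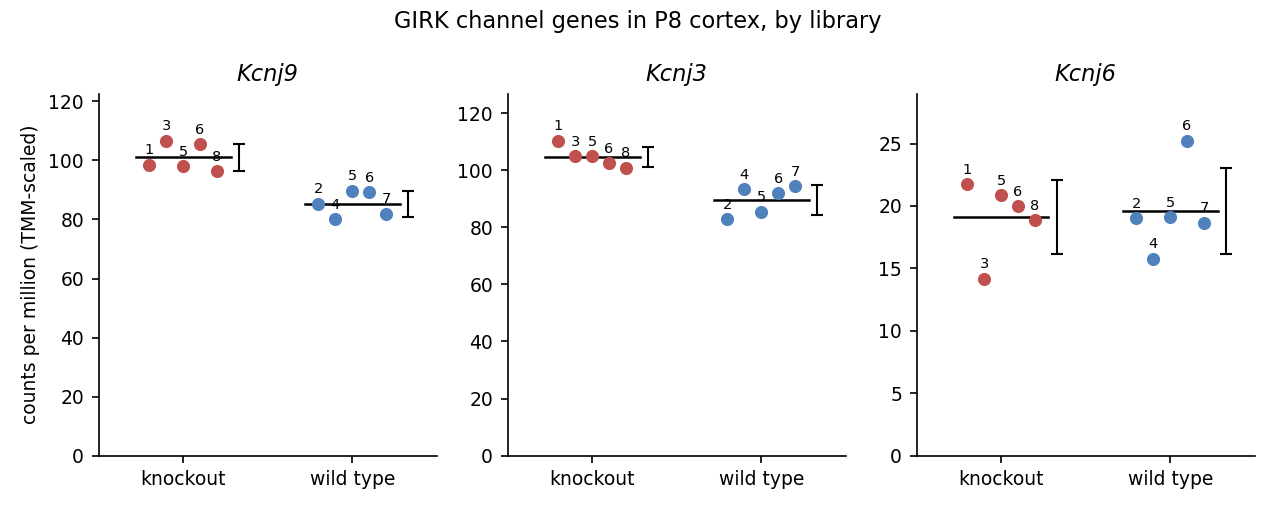
TMM-scaled CPM of Kcnj9, Kcnj3 and Kcnj6 in each library, with knockout left of wild type, the replicate number beside each point, the mean as a line and the SD as a bar. All 5 knockout libraries lie above all 5 wild-type libraries for Kcnj9 and Kcnj3, and the groups overlap for Kcnj6.

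The balance between the GIRK genes was compared within libraries, where the library scale cancels, on counts not divided by length, which shifts both genotypes alike. The log2 ratio of Kcnj9 to Kcnj3 averaged -0.05 ± 0.0848 in knockout and -0.07 ± 0.136 in wild type (SD, n = 5 each), a difference of 0.02 (exact two-sided permutation p = 0.817, adjusted over both ratios 0.817). The log2 ratio of Kcnj9 to Kcnj6 averaged 2.41 ± 0.290 in knockout and 2.14 ± 0.194 in wild type, a difference of 0.28 (exact two-sided permutation p = 0.0714, adjusted 0.143). Neither ratio was shown to differ between the genotypes, and the second does not show that Kcnj9 and Kcnj6 differed in their response.

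**Figure D3:**
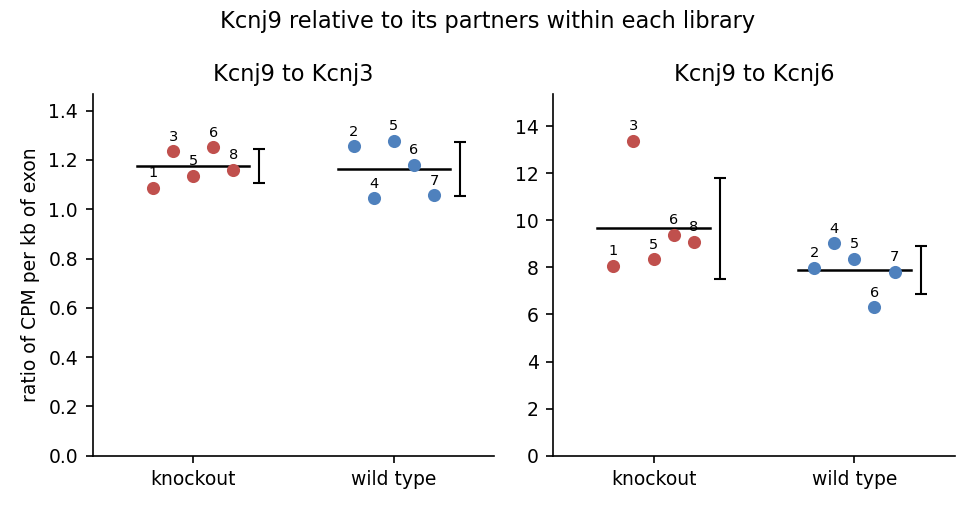
Ratio of CPM per kilobase of Kcnj9 to Kcnj3 (left) and to Kcnj6 (right) in each library, with knockout left of wild type, the mean as a line and the SD as a bar. The ratio to Kcnj3 lies between 1.04 and 1.28 in all libraries, and that to Kcnj6 is highest in knockout replicate 3, at 13.4.

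Of the 43 members 1 rose past the test over all genes (2.33%), where 0.187% of the 15488 tested genes were higher and 0.194% lower, and 0 members fell. At an unadjusted edgeR p under 0.05, 12 members were higher (27.9%) and 1 was lower (2.33%), against 4.19% and 4.52% of all tested genes. 3 members, Kcnj9, Kcnj3 and Kcnj11, had every knockout library above every wild-type library (6.98%), against 0.93% of tested genes, and 0 had every knockout library below, against 0.897%. In both directions together, the adjusted test called 0.381% and the unadjusted test 8.71% of all tested genes. The median log2 fold change was 0.02 over the members and -0.0021 over all tested genes, and 24 of the 43 were positive, against 49.1% of all tested genes. Without knockout replicates 3, 5 and 6, 7 members were higher and 1 lower at an unadjusted p under 0.05, against 3.06% and 3.69% of all genes in that fit, and 0 were past the adjusted threshold. Without knockout replicate 8, 4 were called higher (Kcnj9, Kcnj3, Kcnip3 and Kcnc4) and 1 lower (Kcnh1), and in that fit 97 genes were higher and 85 lower over all genes, against 29 and 30 with all libraries. The choroid marker sum was below every wild-type library in all knockout libraries. The striatal sum was 354 CPM in knockout replicate 8, inside the wild-type range. The interneuron sum was 604 and 609 CPM in knockout replicates 1 and 6, also inside the wild-type range. Elsewhere in the knockout the striatal and interneuron sums lay below those ranges. The part of these markers in the member differences was not tested.

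After Kcnj9 and Kcnj3, the members with the smallest p-values were well short of the threshold. Kcnj11 had 24.5, 24.6, 23.0, 23.8 and 26.3 CPM in the knockout libraries and 19.5, 22.7, 21.0, 18.9 and 19.8 CPM in the wild-type libraries. Its groups did not overlap, and its log2 fold change of 0.27 (SE 0.0854, edgeR adjusted p = 0.256) was the largest of the 43. Kcnip4, a Kv4 auxiliary subunit gene, had 34.4, 35.3, 28.2, 35.5 and 34.4 CPM in knockout and 26.1, 28.8, 26.5, 28.2 and 31.9 CPM in wild type, with a log2 fold change of 0.25 (SE 0.0807, edgeR adjusted p = 0.263). Knockout replicate 5 fell inside the wild-type range and the other knockout libraries lay above it. Kcnc2 had 60.4, 55.0, 55.7, 61.5 and 50.3 CPM in knockout and 44.0, 51.4, 50.8, 54.1 and 46.4 CPM in wild type, with a log2 fold change of 0.20 (SE 0.0684, edgeR adjusted p = 0.317). Knockout replicate 8 alone fell within the wild-type range. Kcnip3 (log2 fold change 0.18, SE 0.0680), Kcnk1 (0.16, SE 0.0644), Kcnn1 (0.16, SE 0.0686) and Kcnh3 (0.11, SE 0.0496) had edgeR adjusted p-values from 0.391 to 0.484. Without knockout replicates 3, 5 and 6 the log2 fold change was 0.07 for Kcnip3, 0.02 for Kcnh3 and 0.28 for Kcnn1, and without knockout replicate 8 that of Kcnn1 was 0.11.

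Kcnv1 was the member with an unadjusted p under 0.05 and a lower level in the knockout. It had 88.9, 75.6, 76.1, 75.8 and 80.8 CPM in the knockout libraries and 85.3, 85.4, 90.0, 89.0 and 91.8 CPM in the wild-type libraries. Knockout replicate 1 lay inside the wild-type range and the other knockout libraries below it, and the log2 fold change was -0.15 (SE 0.0558, edgeR adjusted p = 0.351). Without knockout replicates 3, 5 and 6 it was -0.06.

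The 30 members with an unadjusted p of 0.05 or more had log2 fold changes between -0.21 and 0.25, 12 positive and 18 negative. For 22 of them the 95% interval of the fold lay wholly between 0.8 and 1.25, which bounds the average genotype difference at this depth and number of libraries. Kcnd2 is an example, with 127, 130, 128, 131 and 127 CPM in the knockout libraries and 119, 126, 137, 127 and 139 CPM in the wild-type libraries, and an interval of the fold from 0.926 to 1.07. Kcnma1 had 228, 205, 250, 209 and 224 CPM in knockout and 214, 206, 223, 259 and 254 CPM in wild type, with an interval from 0.880 to 1.06. Both genes had overlapping groups. Kcnh5 had the largest standard error, with an interval from 0.619 to 1.21 and 12.3, 10.99, 11.9, 6.13 and 18.1 CPM in the knockout libraries and 15.1, 11.1, 12.8, 16.6 and 12.9 CPM in the wild-type libraries. Its highest and its lowest library were both knockout.

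**Figure D4:**
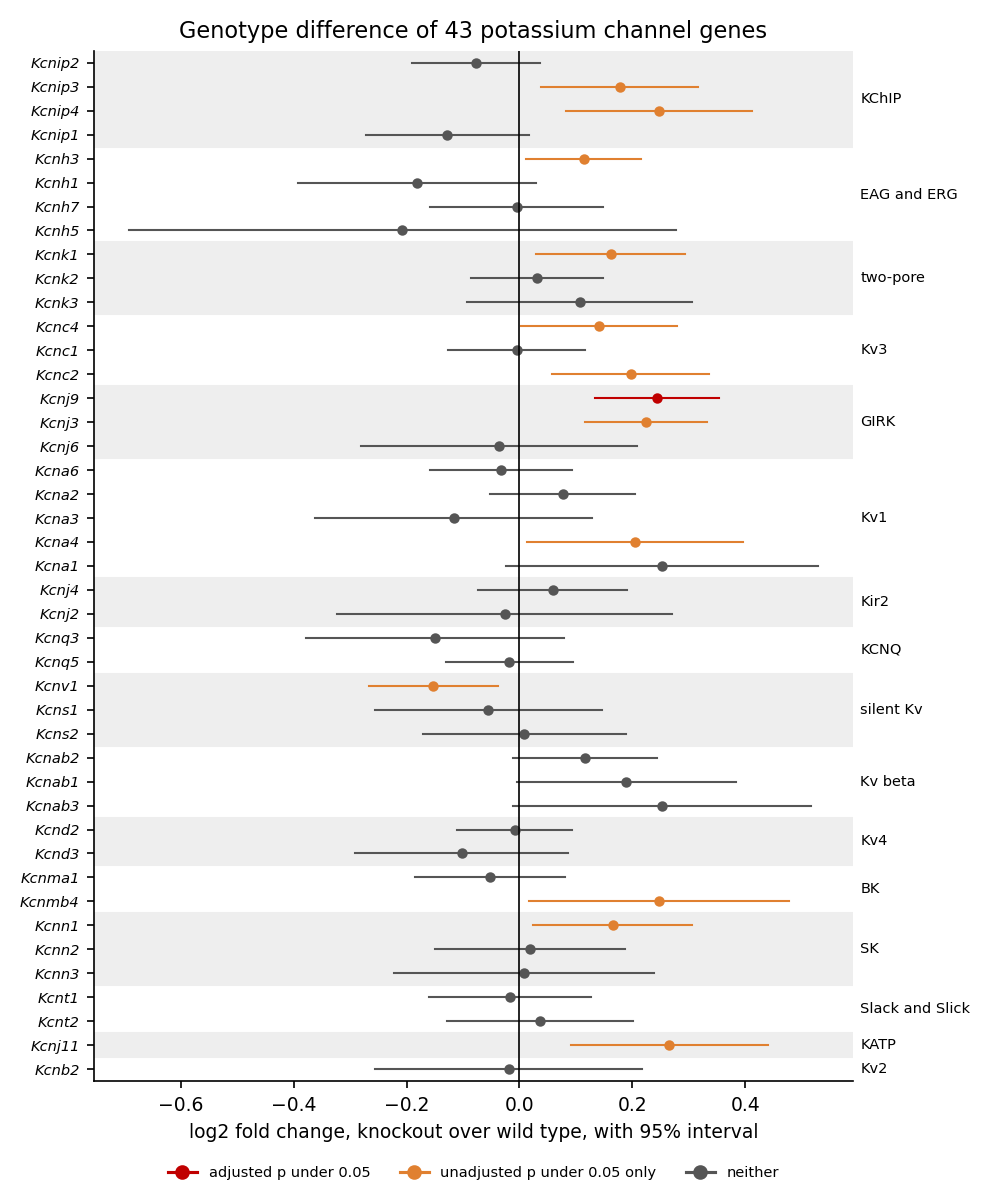
Log2 fold change of knockout over wild type with its 95% interval for the 43 genes, grouped by family as in the plot of levels. Kcnj9, in red, passed the edgeR test over all genes, 12 genes in orange had an unadjusted p under 0.05 only, and the 30 in grey had neither.

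Summed by family, GIRK and SK genes had every knockout library above every wild-type library, as did Kcnj11, the lone KATP member. The GIRK sum was 44.3 to 47.0 CPM per kilobase in the knockout libraries and 38.3 to 41.8 in the wild-type libraries, and the groups were also apart in CPM, at 216 to 231 CPM in knockout and 187 to 206 CPM in wild type. The SK sum was 17.4 to 18.6 CPM per kilobase in knockout and 15.8 to 17.2 in wild type, but in CPM its groups overlapped, at 109 to 118 CPM in knockout and 102 to 113 CPM in wild type. GIRK and Kcnj11 differences are those of the genes described above. The Kv beta sum, with 3 of 3 positive log2 fold changes, was 32.2 to 37.3 CPM per kilobase in knockout and 29.3 to 35.6 in wild type, and the Kv3 sum was 37.1 to 46.3 in knockout and 39.0 to 41.3 in wild type. The KCNQ sum was 28.9 to 36.9 CPM per kilobase in knockout and 32.3 to 36.6 in wild type, and the Kv4 sum was 29.5 to 32.3 in knockout and 29.1 to 34.2 in wild type. The groups of the Kv beta, Kv3, KCNQ and Kv4 families overlapped. Since the genes of a sum were chosen with earlier results of these data known, the sums carry no test.

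The genes around GIRK channels, from receptors to G-proteins, had log2 fold changes of both signs. Of 26 listed genes of GIRK signalling, all tested, 0 rose and 1 fell past the edgeR test, against 0.187% and 0.194% of all tested genes. At an unadjusted p under 0.05, 2 were higher and 1 lower, against 4.19% and 4.52% of all tested genes. Their median log2 fold change was -0.0108 and 11 were positive, where 49.1% of all tested genes were. The gene that fell was Gnb4, which encodes a G-protein beta subunit, at 134, 127, 141, 125 and 152 CPM in the knockout libraries and 154, 154, 160, 161 and 169 CPM in the wild-type libraries. All knockout libraries lay below all wild-type libraries, with a log2 fold change of -0.23 (SE 0.0529, edgeR adjusted p = 0.0410), and the adjusted p ranged from 0.00328 to 0.187 when 1 library was omitted, under 0.05 only without knockout replicate 8. Adora1, which encodes the adenosine receptor that couples to GIRK channels, stood at 212 ± 8.37 CPM in knockout and 185 ± 7.08 CPM in wild type (SD, n = 5 each), with non-overlapping groups and a log2 fold change of 0.19 (SE 0.0463, edgeR adjusted p = 0.0660). Adora1 was past the threshold with DESeq2 (adjusted p = 0.00806), with edgeR and no filter (0.0320) and without knockout replicate 8 (0.0211). It was short of the threshold in the other 18 of 21 alternatives. The edgeR adjusted p was up to 0.259 with 1 library left out and 0.453 without knockout replicates 3, 5 and 6. Rgs7bp, which encodes a membrane anchor of RGS proteins that speed GIRK closure, had a log2 fold change of 0.16 (SE 0.0571, edgeR adjusted p = 0.334).

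Of 50 other potassium channel subunit genes, 36 passed the filter and 0 passed the edgeR test, with a median log2 fold change of 0.0053. At an unadjusted p under 0.05, 3 were higher and 5 lower, against 4.19% and 4.52% of all tested genes. Kcnj10, the inward rectifier gene of astrocytes, stood at 212 ± 8.28 CPM in knockout and 187 ± 9.93 CPM in wild type (log2 fold change 0.18, SE 0.0479, edgeR adjusted p = 0.0985). It was past the threshold with DESeq2 (adjusted p = 0.0374) and with edgeR and no filter (0.0469), and short of it in the other 19 of 21 alternatives. The edgeR adjusted p was up to 0.371 with 1 library left out and 0.439 without knockout replicates 3, 5 and 6. The 6 astrocyte markers summed to 3418 to 3998 CPM in the knockout and 3214 to 3704 CPM in the wild-type libraries, and their part in the Kcnj10 values was not tested. Kcns3, a silent subunit gene, was at 6.06 ± 0.926 CPM in knockout and 3.81 ± 0.741 CPM in wild type (log2 fold change 0.66, SE 0.179, edgeR adjusted p = 0.122). Kcnj5, the remaining GIRK subunit gene and the main partner of Kcnj3 in heart, was at 1.51 ± 0.571 CPM in knockout and 3.11 ± 1.04 CPM in wild type (log2 fold change -1.04, SE 0.294, edgeR adjusted p = 0.153). Kcnj5 was past the threshold with no filter (edgeR adjusted p = 0.0239) and without knockout replicate 8 (0.0308), and short of it in the other 18 alternatives. Its log2 fold change was -0.58 without knockout replicates 3, 5 and 6 (edgeR adjusted p = 0.798). Of 28 genes for partners and placement of potassium channels 26 were tested and 0 passed. At an unadjusted p under 0.05, where 4.19% of all tested genes were higher, 4 of the 26 were. Among them were Amigo1, which encodes an auxiliary protein of Kv2 channels (log2 fold change 0.19, SE 0.0578, edgeR adjusted p = 0.185), and Dlg2, which encodes a scaffold that binds Kv1 and Kv4 channels (0.13, SE 0.0461, edgeR adjusted p = 0.317).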

How the data were processed

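Total RNA of cerebral cortex was extracted with a Qiagen RNeasy kit, per the labels. The authors deposited a single table of raw counts per gene under Entrez identifiers. The submitters' processing notes name HISAT2, featureCounts and the mm39 build. Not given in the sources used here: versions, annotation, strand setting and treatment of multi-mapping reads. With the strand setting unknown, reads of overlapping genes cannot be told apart: 22 of the 43 members overlap another RefSeq gene, among them Kcnip4, Kcnip3, Kcnh3, Kcnd2 and Kcnma1, and Kcnj9, Kcnj3, Kcnj6, Kcnj11, Kcnc2 and Kcnv1 overlap none. Symbols came from RefSeq GRCm38.p6 (30648 of 30935 identifiers matched), and exon lengths from GENCODE M21, matched by Entrez identifier for all 43 members. Neither is the authors' build, so lengths are approximate.

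Genotypes were compared on the whole table in R 4.3.3 with edgeR 4.0.16: filterByExpr (15488 genes), TMM factors, and a two-sided quasi-likelihood test of genotype alone with robust dispersions, Benjamini-Hochberg adjustment and a threshold of 0.05. Each standard error is the log2 fold change over the root of F, and intervals cover 95%. CPM used TMM-scaled totals. The within-library ratios used a pseudocount of 0.5. The test was checked on simulated counts. Replicate pairs differed by more than sampling noise (chi-square per degree of freedom from 4.10 to 13.9), so each library counted once. The design text calls the samples of each genotype independent.

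The members, families, gene lists and tests were chosen with earlier results of these data known. Named by rule were the GIRK genes, members past the threshold, the 10 members with the smallest p, the highest member of each family, and per list the genes past the threshold and the 3 with the smallest p, of which 1 is not reported here. The other members are described by level, and Kcnd2, Kcnma1, Kcnh5, Kcnc4, Kcnh1, Ttr and the called markers were given further values after these were seen. Alternatives were other normalizations and filters, DESeq2 1.42.0, limma-voom (limma 3.58.1), non-robust dispersions, a sex term, a replicate block, each library left out, and no knockout replicates 3, 5 and 6. Sex was read from Xist and Y-linked counts (3 female and 2 male knockout, 4 female and 1 male wild-type libraries).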

Additional observations from a re-analysis of the deposited data

Results flagged for a closer look

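4 values stood apart because the highest or lowest of 5 libraries of a genotype was well separated from the rest, among 90 such groups examined. Chance marks about 1 group in 20. Kcnip4 was lowest in knockout replicate 5, at 28.2 CPM, against 34.4 to 35.5 CPM in the other knockout libraries. Kcnj4 was lowest in knockout replicate 8, at 61.4 CPM, against 75.4 to 78.0 CPM in the others. Kcnn1 was highest in knockout replicate 8, at 56.4 CPM, against 44.9 to 47.8 CPM in the others. The per-length ratio of Kcnj9 to Kcnj6 was highest in knockout replicate 3, at 13.4, against 8.08 to 9.39 in the others.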

How the results depend on the processing

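Kcnj9 was higher in the knockout in every fit run. It was past the threshold in 8 of 11 alternatives and in 4 of 10 fits with a library omitted (log2 fold change 0.22 to 0.27). The exceptions among the 11 were the sex term (0.23, adjusted p = 0.0771), the replicate block (0.18, adjusted p = 0.9996) and the fit without knockout replicates 3, 5 and 6 (0.19, adjusted p = 0.497). The genotypes share replicate numbers 5 and 6 only, so the block is informed by 4 libraries. Same-numbered libraries did not deviate together (correlations -0.042 and -0.078 across genes). These values show no pairing by number, but with so few shared numbers they cannot exclude one. Members called higher numbered 2 with no filter, 2 with DESeq2, 0 with the sex term, 0 with the replicate block, 0 without knockout replicates 3, 5 and 6, and 0 to 4 with 1 library left out, where members called lower numbered 0 to 1. Over all genes, 75 were higher and 96 lower with no filter, 51 and 64 with DESeq2, 14 and 14 with the sex term, 5 and 7 without knockout replicates 3, 5 and 6, and 6 to 97 and 7 to 85 with 1 library left out, against 29 and 30 as reported. With the replicate block 3 were higher and 24 lower. Kcnj6, at -0.04, turned positive without knockout replicates 3, 5 and 6 (0.0501), and ran from -0.1037 to 0.0792 with 1 library left out. The log2 difference of the ratio of Kcnj9 to Kcnj3 turned to -0.0447 without knockout replicates 3, 5 and 6, and ran from -0.0197 to 0.0530 with 1 library left out. That of Kcnj9 to Kcnj6 ran from 0.15 to 0.33, past 0.05 only without knockout replicate 1 (exact permutation p = 0.0397), and was 0.13 without knockout replicates 3, 5 and 6 (exact permutation p = 0.429). In CPM the KChIP genes ranked 6 and the GIRK genes 8 of 16 families, in place of 1 and 5, and with longest transcripts, chosen after the data were seen, GIRK ranked 6. Gnb4 also fell short of the threshold with limma-voom (adjusted p = 0.0694), non-robust dispersions (0.0662), the sex term (0.0907), the replicate block (0.9996), and without knockout replicates 3, 5 and 6 (0.648). The cause of these shifts was not tested.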

Other observations

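Among the potassium channel genes outside the members, the choroid plexus genes Kcne2, an auxiliary subunit gene, and Kcnj13, an inward rectifier gene that was also on the choroid list, were low in the knockout. Kcne2 averaged 0.398 CPM in knockout and 1.40 CPM in wild type (log2 fold change -1.82, SE 0.550, edgeR adjusted p = 0.226), and Kcnj13 at 0.461 ± 0.0457 and 1.13 ± 0.411 CPM (-1.29, SE 0.407, edgeR adjusted p = 0.246; SD, n = 5 each). Both were picked with their values known, and neither passed the test. Kcne2 was 1.26 CPM in knockout replicate 1, which also had the highest Ttr of the knockout libraries, and 0.0552 to 0.392 CPM in the other knockout libraries. Kcnj13 was 0.479 CPM in knockout replicate 1 and 0.390 to 0.503 CPM in the others.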
